A study of Homo sapiens with 4 samples.

Results

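CD34, PODXL, PODXL2, EMCN, CD164, PLVAP, MCAM and ECSCR encode CD34-type sialomucins and other glycoproteins of the endothelial cell surface. These 8 genes were taken by symbol from a table of read counts for 19912 genes. All 8 were found, and all 8 were among the 11380 genes that passed the filter on low counts and were tested. The libraries came from endothelial cells derived in culture from H1, a human embryonic stem cell line, all positive for a GATA2/eGFP reporter. The 2 groups were wild type (WT, 2 libraries) and a knockout of GFI1 (GFI1-KO, 2 libraries); GFI1 is a zinc-finger repressor known for its part in the emergence of blood cells from endothelium. The labels used here do not give the altered part of GFI1, the number of clones, the day of differentiation or whether replicates were separate cultures. The p-values therefore measure the spread between these libraries, which may be technical.

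Sialomucins carry dense O-linked glycans capped with sialic acid on an extended extracellular domain. CD34, podocalyxin (PODXL) and endoglycan (PODXL2) form a family with related cytoplasmic tails, which can be tied to the actin cytoskeleton through ezrin-type linkers. Depending on their glycans, such proteins either hold neighbouring cells apart or act as ligands for selectins, the receptors that slow leukocytes on the vessel wall. Endomucin (EMCN) and endolyn (CD164) are sialomucins outside that family. PLVAP builds the diaphragms of endothelial caveolae and fenestrae, MCAM (CD146) is an immunoglobulin-type adhesion molecule of the vessel wall, and ECSCR is a small endothelial glycoprotein linked to migration and growth factor signalling.

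The DNA just before the start sites of CD34, EMCN and PLVAP is shown because these 3 genes passed the test as higher in GFI1-KO. GFI1 binds DNA through the core letters AATC, here in capitals. Sequences are from RefSeq (GRCh38.p14), 5′ to 3′ on the gene's own strand, which is the minus strand for all 3. For EMCN and PLVAP the stretch ends where a GENCODE exon begins. The CD34 window lies inside a longer GENCODE first exon, so only a short stretch around the match is given. The EMCN stretch lies inside the longer GENCODE gene (100395341 to 100880126), so it precedes a RefSeq start and not the start of that gene.
CD34, chr1:207911171-207911198: gaaaaaagcaagAATCccccacccctct
EMCN, chr4:100518094-100518272: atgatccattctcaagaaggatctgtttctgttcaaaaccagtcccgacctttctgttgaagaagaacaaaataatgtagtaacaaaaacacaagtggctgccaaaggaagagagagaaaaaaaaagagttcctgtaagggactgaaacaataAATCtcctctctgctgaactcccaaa
PLVAP, chr19:17377351-17377592: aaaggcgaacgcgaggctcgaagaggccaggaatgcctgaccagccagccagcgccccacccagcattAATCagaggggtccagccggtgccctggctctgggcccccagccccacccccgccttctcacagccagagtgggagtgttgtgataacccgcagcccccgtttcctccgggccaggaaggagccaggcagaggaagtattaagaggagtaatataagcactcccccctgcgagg

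The match began 61 bases before the RefSeq start of CD34, 97 before that of EMCN and 182 before that of PLVAP. Each of the 3 windows of 250 bases held 1 match on either strand. RefSeq windows were at hand for 7 of the 8 genes, with a pair of alternative starts for CD164; PODXL had none. AATC or its complement GATT stood in the windows of 5 of those 7 genes, which besides the 3 above were PODXL2 and CD164, and in 64.8% of all 35116 RefSeq windows of that length. The longer form AAATCA, which contains AATC, was in 0 of the 7 genes and in 11.6% of all windows. GGAA, the core of ETS-factor sites, stood in the windows of 6 of the 7 genes and in 92.7% of all windows. A match of such short letters is a description of the sequence and not a binding site.

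GFI1-KO replicate 1 was shallow, with 146584 counts against 2239214 to 2417410 in the other libraries, so 3 counts equal 19.9 CPM there and 1.26 to 1.34 CPM elsewhere. CPM is the count divided by the TMM-scaled library total per 1000000; intervals from counts cover counting error only. GFI1 was at 58.5 and 58.3 CPM in WT and at 19.9 and 19.6 CPM in the libraries labelled GFI1-KO. GATA2, whose reporter defined the cells, was at 293 and 252 CPM in WT and at 139 and 124 CPM in GFI1-KO. All 10 endothelial markers were detected, with summed levels of 5533 and 5766 CPM in WT and 6677 and 8186 CPM in GFI1-KO. Among markers of other cells, PTPRC (leukocytes), HBE1 and HBZ (red cells) and NANOG (pluripotent cells) had 0 counts in every library. HBE1 shares 781 exon bases with AC104389.4 on the same strand and HBZ shares 205 with HBM, so reads from those bases may have been dropped. The summed blood markers were at 18.8 and 36.9 CPM in WT and at 0 and 6.68 CPM in GFI1-KO. The summed mesenchymal and pericyte markers were at 2532 to 3119 CPM in WT and 2279 to 2705 CPM in GFI1-KO. RGS5, COL1A1 and COL3A1 made up most of that sum in every library. DCN had 0 counts in both WT libraries, and both DCN and PDGFRB had 0 counts in GFI1-KO replicate 1. The pluripotency-linked genes LIN28A and DPPA4 made up most of a sum of 560 to 757 CPM. The summed epithelial and podocyte markers, mostly KRT8 and KRT18, were at 599 and 418 CPM in WT and at 219 and 519 CPM in GFI1-KO. The part of these other cells in the results was not tested.

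Of the 8 surface glycoprotein genes, CD34, EMCN and PLVAP were higher in GFI1-KO cells, 0 were lower and 5 did not pass the test. Being called means an edgeR adjusted p under 0.05 over all 11380 genes; 0.958% of those genes were called, 0.773% higher and 0.185% lower. EMCN rose 5.22-fold, CD34 2.02-fold and PLVAP 1.97-fold. The median log2 fold change was 0.88 over the 8 genes and -0.024 over all tested genes. Of the 8 values 7 were above 0, against 5404 of all 11380. The 8 genes were chosen with earlier results of these data known, so these values describe the genes and do not test them as a set. In 5 of the 8 genes both GFI1-KO libraries lay above both WT libraries, an arrangement seen for 18.6% of all tested genes; PODXL2 had the opposite arrangement, seen for 22.7%. In bulk RNA, more cells of a type and more RNA per cell cannot be told apart, nor can fewer cells and less RNA per cell.

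**Figure D1:**
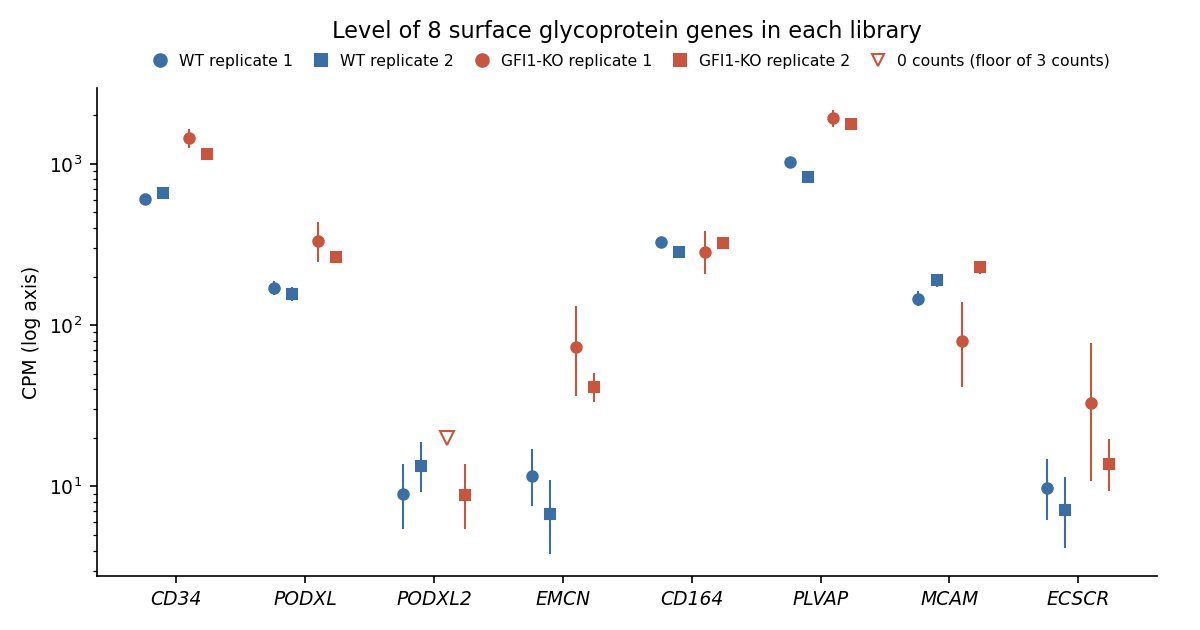
Level of each gene in CPM (log axis) in WT (blue) and GFI1-KO (red) libraries; circles are replicate 1 and squares replicate 2, bars are exact 95% counting intervals, and the open triangle marks 0 counts in a library where 3 counts equal 19.9 CPM. CD34, PODXL, EMCN, PLVAP and ECSCR sit higher in both GFI1-KO libraries, though the bars of ECSCR overlap between groups. The CD164 and MCAM points of the 2 groups overlap.

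CD34, the name-giving sialomucin of endothelium and blood progenitors (ENSG00000174059; chromosome 1, 207880972 to 207911402, minus strand, GRCh38), was at 609 and 658 CPM in WT and at 1437 and 1151 CPM in GFI1-KO replicates 1 and 2. The lower GFI1-KO value was well above the higher WT value, and the counting interval of the shallow library (1253 to 1642 CPM) did not reach either WT library. This is a log2 fold change of 1.02 (SE 0.22, 95% interval 0.56 to 1.47, edgeR adjusted p = 0.0357). The value stayed between 0.86 and 1.19 when any 1 library was left out. The call was lost without WT replicate 1 (edgeR adjusted p = 0.540) and without WT replicate 2 (0.247), with the newer dispersion of edgeR (0.0675), with upper-quartile scaling (0.0587) and with a filter at a mean of 5 CPM (0.0507).

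Podocalyxin and endoglycan, the relatives of CD34, did not pass the test. PODXL (ENSG00000128567; chromosome 7, 131500262 to 131558217, minus strand) was at 170 and 157 CPM in WT and at 331 and 263 CPM in GFI1-KO, so the groups did not overlap. Its log2 fold change was 0.81 (SE 0.23, 95% interval 0.34 to 1.29, edgeR adjusted p = 0.118), and 5.22% of all tested genes had a value at least as high. Without GFI1-KO replicate 2 the PODXL value was 1.03 and was called (adjusted p = 0.0332). That fit sets the shallow library alone against WT, and assumes that it varies as WT does.

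PODXL2 (ENSG00000114631; chromosome 3, 127629181 to 127672809, plus strand) was close to the limit of detection. The WT libraries held 20 and 32 counts of it and the GFI1-KO libraries 0 and 20, or 8.93 and 13.4 CPM against 0 and 8.90 CPM. The 95% counting interval of the 0 counts in GFI1-KO replicate 1 reached 24.4 CPM, above both WT values. The value of GFI1-KO replicate 2 differed from that of WT replicate 1 by less than counting error. The log2 fold change of -0.49 had a 95% interval of -1.64 to 0.66 (edgeR adjusted p = 0.902), so neither a 2-fold fall nor a small rise can be told from no change at this depth.

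EMCN, which encodes an anti-adhesive sialomucin of capillary and venous endothelium (ENSG00000164035; chromosome 4, 100395341 to 100880126, minus strand), had the largest log2 fold change of the 8 genes and the lowest WT level per length. There were 26 and 16 counts of it in the WT libraries and 11 and 93 in the GFI1-KO libraries, which is 11.6 and 6.71 CPM against 72.9 and 41.4 CPM. Both GFI1-KO values exceeded both WT values, and the counting intervals of GFI1-KO (36.4 to 130 and 33.4 to 50.7 CPM) lay above those of WT (7.58 to 17.0 and 3.84 to 10.9 CPM). This gave a log2 fold change of 2.38 (SE 0.41, 95% interval 1.53 to 3.26, edgeR adjusted p = 0.00959). EMCN stayed called in all 13 alternative analyses, with log2 fold changes from 2.09 to 3.0 and adjusted p from 6.4e-07 to 0.037.

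CD164, which encodes endolyn, a sialomucin of endosomes and the cell surface that is expressed in many cell types (ENSG00000135535; chromosome 6, 109366514 to 109382812, minus strand), was at 326 and 284 CPM in WT and at 285 and 320 CPM in GFI1-KO. The groups overlapped fully. The log2 fold change was 0.013 (SE 0.22, edgeR adjusted p = 0.999) with a 95% interval of -0.44 to 0.47. A change of 2-fold in either direction lies outside that interval.

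PLVAP, the diaphragm protein gene (ENSG00000130300; chromosome 19, 17351448 to 17377350, minus strand), was the most abundant of the 8. It was at 1031 and 831 CPM in WT and at 1908 and 1762 CPM in GFI1-KO, with no overlap between groups. Its log2 fold change was 0.97 (SE 0.22, 95% interval 0.52 to 1.43, edgeR adjusted p = 0.0416). Leaving out any 1 library kept it between 0.84 and 1.15, but the call was lost without WT replicate 1 (edgeR adjusted p = 0.316) and WT replicate 2 (0.778). It was also lost with the newer dispersion (0.0781), upper-quartile scaling (0.0738) and a filter at a mean of 5 CPM (0.0579).

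MCAM, the CD146 gene of endothelium and pericytes (ENSG00000076706; chromosome 11, 119308529 to 119321521, minus strand), had the largest ratio between the GFI1-KO libraries among the genes counted in every library. It was at 146 and 189 CPM in WT, while the shallow GFI1-KO library was at 79.5 CPM and the deep one at 228 CPM, so that both WT values lay between the GFI1-KO values. The shallow value rests on 12 counts, with a counting interval of 41.1 to 139 CPM. The log2 fold change was 0.12 (SE 0.30, 95% interval -0.51 to 0.75, edgeR adjusted p = 0.970); it was 0.44 without GFI1-KO replicate 1 and -1.07 without GFI1-KO replicate 2. MCAM shares 509 of its 7422 exon bases with CBL on the opposite strand, and the strand setting of the counting is not given in the sources used here.

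ECSCR (ENSG00000249751; chromosome 5, 139448556 to 139462743, minus strand) was counted 22 and 17 times in the WT libraries and 5 and 31 times in the GFI1-KO libraries, or 9.82 and 7.13 CPM against 33.1 and 13.8 CPM. The GFI1-KO values were above both WT values, but the counting intervals of both GFI1-KO libraries met those of both WT libraries. These intervals were 10.8 to 77.3 and 9.38 to 19.6 CPM in GFI1-KO and 6.16 to 14.9 and 4.16 to 11.4 CPM in WT. The log2 fold change was 0.95 (SE 0.50, 95% interval -0.10 to 2.02, edgeR adjusted p = 0.606). It was 0.70 without GFI1-KO replicate 1 and 1.97 without GFI1-KO replicate 2, and was not called in either fit (edgeR adjusted p = 0.743 and 0.257). Of its 1035 exon bases, 750 are shared with AC142391.1 on the same strand, which had 0 counts in every library. Reads from those bases may have been dropped, so the level of ECSCR is uncertain.

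**Figure D2:**
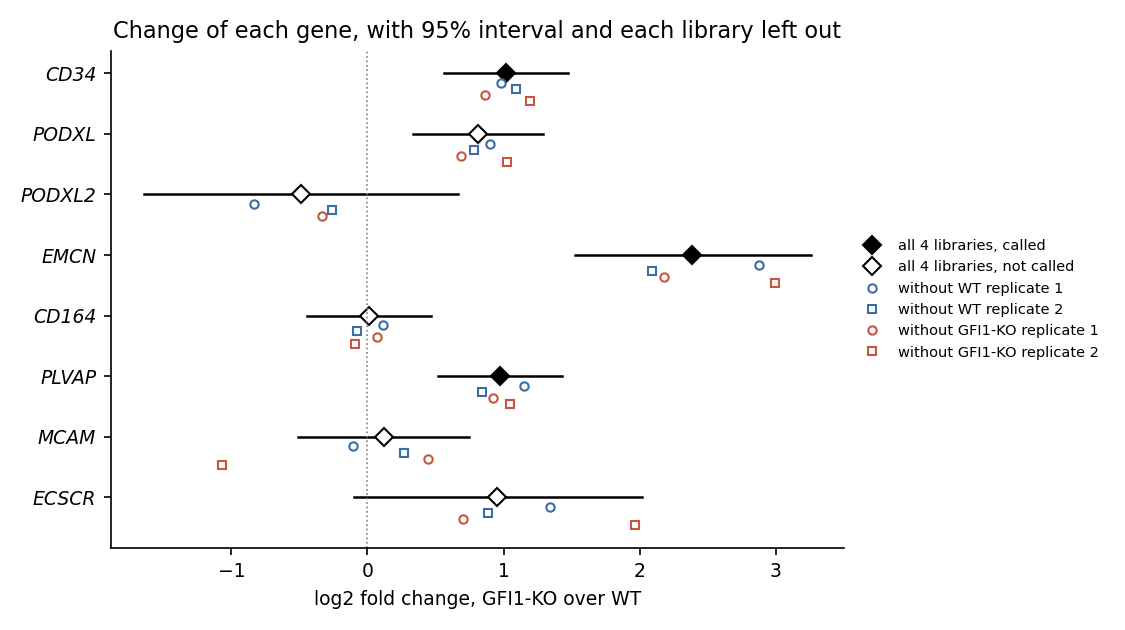
Log2 fold change of GFI1-KO over WT for each gene with its 95% interval (diamonds; filled where called) and, below each diamond, the value with each library left out in turn. EMCN stays above 2 in each of these fits and CD34 and PLVAP near 1, while MCAM runs from -1.07 to 0.44; for PODXL2 the fit without GFI1-KO replicate 2 is not drawn, since it compares with a library at 0 counts.

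Levels can be compared between genes per kilobase of exon, using the union of all GENCODE exons of a gene. This understates genes with many exons that these cells do not use. ECSCR was divided by all 1035 of its exon bases. Reads from the 750 shared with AC142391.1 may have been dropped, so its level and its place in the order may be understated in both groups. In WT the order of CPM per kilobase was PLVAP (404 ± 61.4, SD, n = 2 in each group), CD34 (68.7 ± 3.75), CD164 (42.3 ± 4.11), PODXL (23.8 ± 1.40), MCAM (22.6 ± 4.12), ECSCR (8.19 ± 1.84), PODXL2 (5.11 ± 1.45) and EMCN (1.75 ± 0.66). PODXL and MCAM overlapped between libraries, and no other neighbours did. In GFI1-KO the order was PLVAP (796 ± 44.8), CD34 (140 ± 22.0), PODXL (43.2 ± 7.01), CD164 (42.0 ± 3.50), ECSCR (22.7 ± 13.2), MCAM (20.7 ± 14.1), EMCN (10.9 ± 4.24) and PODXL2 (2.04 ± 2.88). PODXL and CD164, ECSCR and MCAM, and MCAM and EMCN overlapped there. PLVAP and CD34 kept the first and second places in both groups, and EMCN was last in WT and above PODXL2 in GFI1-KO.

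The 8 genes together took 0.231% and 0.212% of all counts in the WT libraries and 0.427% and 0.365% in the GFI1-KO libraries. CD34 and PLVAP supplied 70.9% and 69.4% of this sum in the WT libraries and 80.7% and 76.9% in the GFI1-KO libraries. Ratios between genes inside a library do not depend on scaling. With 2 libraries against 2, an exact permutation test of such a ratio cannot give a two-sided p below 0.333, so the ratios are described without a test. Per 100 counts of CD34 there were 1.91 and 1.02 counts of EMCN in WT and 5.07 and 3.60 in GFI1-KO, so the ratio of EMCN to CD34 was higher in both GFI1-KO libraries. PLVAP stood at 169 and 126 per 100 CD34 counts in WT and at 133 and 153 in GFI1-KO, and the groups overlapped. PODXL stood at 28.0 and 23.8 in WT and at 23.0 and 22.9 in GFI1-KO, both below the WT values. CD164, at 53.6 and 43.2 in WT, was at 19.8 and 27.9 in GFI1-KO. PODXL2 and MCAM also lay below the WT values, and ECSCR overlapped. Because CD34 was itself called higher in GFI1-KO, a gene with no change falls against it. A lower ratio to CD34 is therefore not a fall of the gene. The share of all tested genes that lay below on this measure was not computed.

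The same counts were set against the sum of the 10 endothelial markers, of which KDR made up 54.1% to 60.7%, because that sum was itself higher in both GFI1-KO libraries. CD34 was at 11.0 and 11.4 counts per 100 marker counts in WT and at 21.5 and 14.1 in GFI1-KO. EMCN was at 0.210 and 0.116 in WT and at 1.09 and 0.506 in GFI1-KO. PLVAP was at 18.6 and 14.4 against 28.6 and 21.5, and PODXL at 3.08 and 2.71 against 4.96 and 3.21. For these 4 genes both GFI1-KO libraries remained above both WT libraries on this measure, by the smallest step for PODXL. CD164 lay below, at 5.89 and 4.93 against 4.27 and 3.91. PODXL2 also lay below, at 0.161 and 0.233 against 0 and 0.109, while MCAM and ECSCR overlapped. The share of all tested genes with such a separation was not computed for these ratios. Against CDH5 (VE-cadherin) alone, CD34, EMCN and PLVAP stood higher in both GFI1-KO libraries, while CD164, PODXL2 and MCAM stood lower. PODXL and ECSCR overlapped, PODXL at 26.5 and 21.7 per 100 CDH5 counts for WT against 37.0 and 26.1 for GFI1-KO. CDH5 was itself at 643 and 720 CPM in WT and at 894 and 1008 CPM in GFI1-KO (log2 fold change 0.49, edgeR adjusted p = 0.439). A gene with no change therefore tends to stand lower against CDH5. The share of all tested genes was not computed for ratios to CDH5 either. Of the 10 endothelial markers, edgeR called 0; DESeq2 and limma-voom also called 0, and at an unadjusted p under 0.05 there were 4 higher and 0 lower. Over all tested genes, 5.81% were higher and 3.54% lower at that unadjusted p. The markers' median log2 fold change was 0.48, with 8 of the 10 values above 0. PECAM1 and ICAM2 went the other way, at -0.33 and -0.14 (edgeR adjusted p = 0.759 and 0.960). PECAM1 was at 443 and 388 CPM in WT and at 344 and 324 CPM in GFI1-KO.

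**Figure D3:**
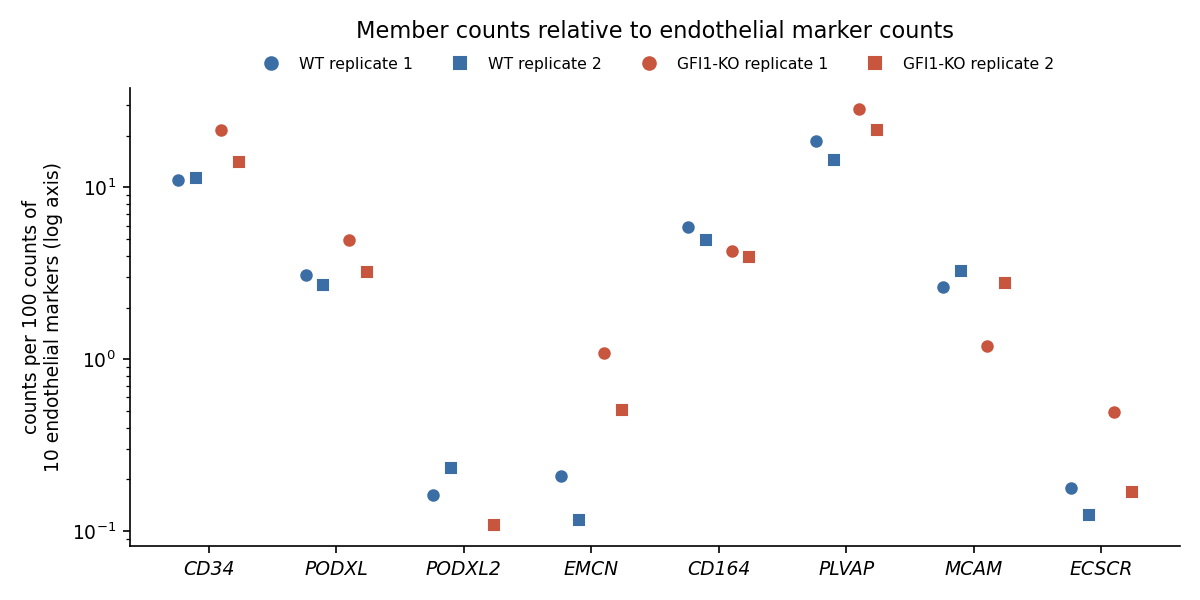
Counts of each gene per 100 counts of the 10 endothelial markers (log axis) in WT (blue) and GFI1-KO (red) libraries; circles are replicate 1 and squares replicate 2. EMCN is at 0.116 and 0.210 in WT and at 0.506 and 1.09 in GFI1-KO, and PODXL2 in GFI1-KO replicate 1 had 0 counts and is not drawn.

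Of the 6 lists of genes that work with these glycoproteins, 5 held 0 edgeR calls; with 5 to 29 tested genes in a list and 0.958% of all genes called, this is near the background and is not a result about the lists. The shares of all genes at an unadjusted p under 0.05 (5.81% higher and 3.54% lower) are likewise the background for the counts at that cut given here. DESeq2 gave no adjusted p for some genes with low counts, so its calls cover fewer genes. The 29 tested enzymes and transporters of O-glycan, sialic acid and sulfate addition held 0 calls with edgeR, DESeq2 (24 of the 29) or limma-voom, with 3 higher and 1 lower at an unadjusted p under 0.05, a median log2 fold change of -0.069 and 12 values above 0. GCNT1, which starts the branched O-glycan core that carries selectin ligands, had the smallest adjusted p of that list. It was at 12.5 and 14.7 CPM in WT and at 66.2 and 33.4 CPM in GFI1-KO (log2 fold change 1.53, SE 0.39, edgeR adjusted p = 0.0782), on 10 counts in the shallow library. It was called without GFI1-KO replicate 1 (0.0185) and without GFI1-KO replicate 2 (0.0155), but not without either WT library (0.395 and 0.197). It was also called with the replicate block (0.00863) and without the low-count filter (0.00840). GALNT18 and GALNT1, which encode enzymes of the family that adds the first sugar, had log2 fold changes of 1.46 and -0.58 (edgeR adjusted p = 0.357 and 0.390). ST6GALNAC2, FUT7 and CHST4 had 0 counts in every library. ST6GALNAC2 shares 1194 exon bases with AC015802.6 on the same strand and FUT7 shares 713 with AL807752.6. Reads from those bases may have been dropped, so these 0 counts do not show absence.

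Of 6 tested selectins and other selectin ligands, E-selectin (SELE) rose, 0 fell and 5 did not pass, and the median log2 fold change was 0.026. SELE was at 12.5 and 26.4 CPM in WT and at 46.4 and 65.4 CPM in GFI1-KO, and its adjusted p was 0.0372 with edgeR. The SELE call was lost without WT replicate 1 (edgeR adjusted p = 0.447) and without GFI1-KO replicate 2 (0.368), with DESeq2 (0.686), library totals (0.0541), the newer dispersion (0.0746), upper-quartile scaling (0.0637) and a filter at a mean of 5 CPM (0.0673). The 7 linkers and adaptors of the cytoplasmic tails held 0 calls with all 3 tools, 2 higher and 0 lower at an unadjusted p under 0.05, and a median of 0.37. NHERF2 and EZR, a scaffold that binds podocalyxin and the linker ezrin, had log2 fold changes of 0.64 and 0.52 (edgeR adjusted p = 0.298 and 0.438), and the adaptor gene CRK had 0.42 (0.605).

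The 10 caveola and vesicle coat genes, which shape the membranes where PLVAP sits, held 0 calls with all 3 tools (9 of the 10 with DESeq2), 2 higher and 2 lower at an unadjusted p under 0.05, and a median of 0.10. CAVIN2 was at 44.7 and 20.1 CPM in WT and at 26.5 and 8.01 CPM in GFI1-KO, with overlap (log2 fold change -1.70, edgeR adjusted p = 0.181). The CAVIN2 value was -2.0 without GFI1-KO replicate 1 (called, edgeR adjusted p = 0.000283), -0.27 without GFI1-KO replicate 2 (0.915), -0.85 without WT replicate 1 (1.0) and -2.07 without WT replicate 2 (0.0651). It was also called without the low-count filter (-1.71, 0.00971). EHD4 and CAVIN3 had 0.60 and 0.75 (edgeR adjusted p = 0.375 and 0.502). The 5 tested partners of MCAM and CD164 held 0 calls with all 3 tools (4 of the 5 with DESeq2), with 1 higher and 0 lower at an unadjusted p under 0.05; their median was 0.53. CXCR4, a chemokine receptor that acts together with CD164, had 1.23, LAMA5, a laminin chain gene, -0.46, and VEGFA, a growth factor gene, -0.83 (edgeR adjusted p = 0.398, 0.594 and 0.661). CXCR4 was called without GFI1-KO replicate 2 (2.53, edgeR adjusted p = 0.00710), a fit that leaves the shallow library alone in its group, and with the replicate block (1.57, 0.0299). Without GFI1-KO replicate 1 it was at 0.76 (0.549). The 7 tested genes of other mucin-type surface glycoproteins held 0 calls with all 3 tools (4 of the 7 with DESeq2), 0 higher and 1 lower at an unadjusted p under 0.05, and a median of -0.11. SPN, the leukocyte sialomucin CD43, was counted 21 and 32 times in the WT libraries and 0 and 9 times in the GFI1-KO libraries (log2 fold change -1.62, edgeR adjusted p = 0.329). CD24 had 0.38 and CD99L2 -0.49 (edgeR adjusted p = 0.643 and 0.752).

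**Figure D4:**
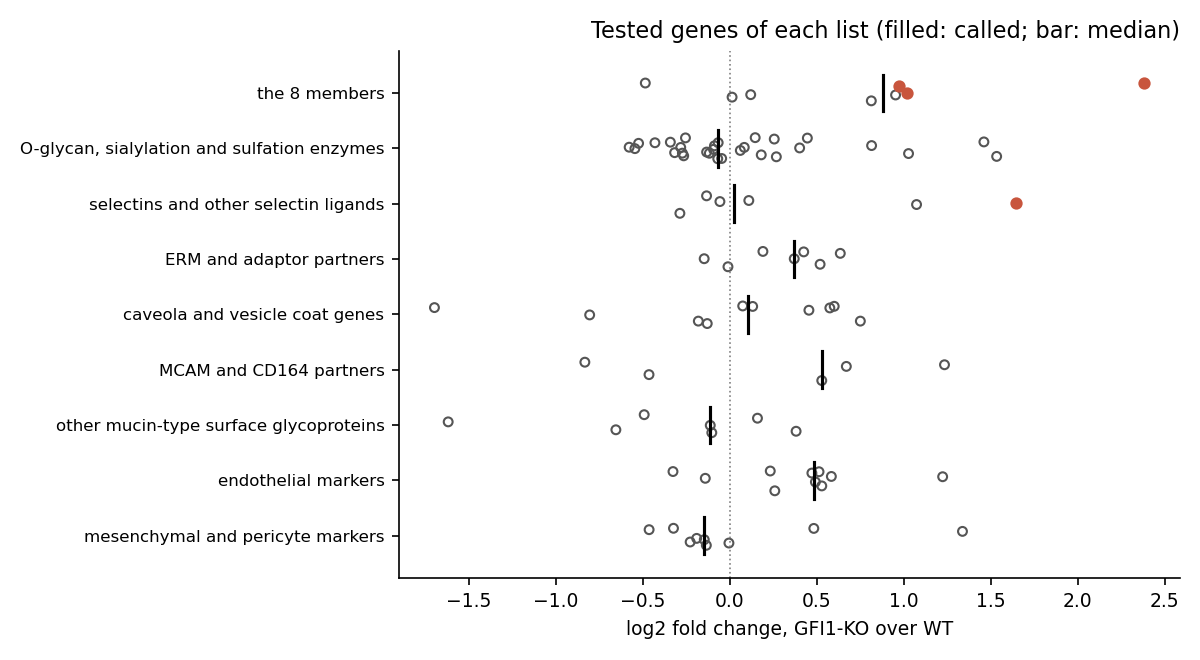
Log2 fold change of GFI1-KO over WT for each tested gene of the 8 surface glycoproteins, of their partner lists and of the endothelial and mesenchymal markers; filled points are called and bars are medians. The median of the 8 genes is 0.88, that of the endothelial markers 0.48 and that of the mesenchymal and pericyte markers -0.15.

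Genes with the most similar pattern were sought among 4752 tested genes whose mean reached 50 CPM and which had counts in every library, by root mean square distance of log2 CPM after centring each gene on its mean over the 4 libraries. For CD34 they were ARHGAP28, PCDH12 and LGALS8, at distances of 0.086, 0.090 and 0.092. For PLVAP they were LGMN, RGS3 and PRCP, at 0.034, 0.054 and 0.060. For EMCN, whose rise was larger, they were CLEC14A, OIT3 and EFNB2, at 0.38, 0.42 and 0.46. PCDH12, an endothelial protocadherin gene, was at 94.7 and 110 CPM in WT and at 205 and 190 CPM in GFI1-KO. CLEC14A, an endothelial lectin gene, was at 33.5 and 22.2 CPM in WT and at 126 and 132 CPM in GFI1-KO. A likeness over 4 libraries in 2 groups mainly reflects the size of the difference between the groups.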

How the data were processed

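Per the labels' protocols, total RNA was extracted with Trizol and made into libraries with an Illumina TruSeq RNA kit. The deposited table holds raw whole-number read counts per gene. The tools named there, per the submitters' processing notes, are DESeq 1.18.1, HTSeq 0.6.0, HISAT2 2.0.4 and SAMtools 1.3.1, with GRCh38 (hg38). Their order, the annotation, the read filters and the strand setting are not given in the sources used. Of 19912 identifiers, 19902 matched GENCODE release 29, the source of coordinates and exon lengths.

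Counts were tested with edgeR 4.0.16 under R 4.3.3 (scaling by TMM, filterByExpr with minimum count 10 and total 15, glmQLFit in its default earlier form, glmQLFTest, genotype as the term) and Benjamini-Hochberg adjustment. Standard errors are the absolute log2 fold change over the square root of F, and the 95% intervals use the test's degrees of freedom. The code was tested on simulated data. Depths and the resulting floors of 3 counts stand in the report. Alternatives were DESeq2 1.42.0, limma-voom (limma 3.58.1), other scalings, filters and dispersion, the replicate block and the omission of each library in turn.

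The 8 genes, the 6 partner lists and the 5 marker lists were chosen with earlier results of these data known, and no list was tested as a set. From each partner list the text names every called gene, or else up to 3 with the smallest adjusted p. It also names the 3 genes nearest in pattern to CD34, EMCN and PLVAP.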

Additional observations from a re-analysis of the deposited data

How the results depend on the processing

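The 13 alternative analyses kept CD34, EMCN, PLVAP, PODXL and ECSCR above 0 and PODXL2 below 0. The number of the 8 genes called was 1 (EMCN) with upper-quartile scaling, with the newer dispersion and with a filter at a mean of 5 CPM; it ran from 1 to 4 when single libraries were left out, with 1 without either WT library and 4 without GFI1-KO replicate 2. Over all tested genes, 109 were called; the count was 58 with upper-quartile scaling, 72 with library totals, 31 with DESeq2, 58 with the newer dispersion, 305 without a low-count filter and 50 at a mean of 5 CPM, and 62 to 373 when single libraries were left out. The causes were not tested. CD164 turned to -0.011 with upper-quartile scaling, -0.0050 with DESeq2 and -0.010 without the filter, and ran from -0.089 to 0.12 over left-out libraries. MCAM turned to -0.087 with DESeq2 and ran from -1.07 to 0.44 over left-out libraries. In the replicate block fit 4 of the 8 genes were called, PODXL being the addition (edgeR adjusted p = 0.0100), 327 genes were called in all, and MCAM was at -0.054; among the partner lists the block added calls for GCNT1 and CXCR4. The replicate numbers were not used to pair samples, since the labels tie them to nothing shared; the difference of replicate 1 from replicate 2 correlated between genotypes at 0.249 across 4753 genes, which are not independent replicates. The depth of GFI1-KO replicate 1 limits PODXL2, ECSCR, EMCN and MCAM most, with 0 to 12 counts there.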
